A study of Mus musculus with 15 samples.

Results

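Connexins are the proteins of gap junctions and claudins those of tight junctions. The expression of 5 connexin genes (Gja1, Gja4, Gja5, Gjb1 and Gjb2) and 5 claudin genes (Cldn1, Cldn3, Cldn4, Cldn5 and Cldn7) was examined in the mouse uterus. Probes were taken when the array's gene name, or the current or an older symbol of the probe's RefSeq identifier, was that of one of these genes, which gave 10 genes of the 27644 names on the array. Uteri came from ovariectomized CD-1 mice, an outbred strain, so that every group, vehicle included, was without ovaries. One pair of groups was collected 24 h after an injection of 250 ng E2 or E3 in 100 µl saline, another pair 2 h after the same doses, and the vehicle group had 100 µl saline alone. E2 and E3 usually stand for estradiol and estriol, which differ in that estriol has a further hydroxyl group on its D ring, and are so read here. The age of the animals and the hour at which vehicle uteri were taken are not stated in the sources used here. Each group had 3 one-colour arrays of whole uterus, 15 in all.

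Connexins assemble into hexameric channels in the plasma membrane, and channels of neighbouring cells dock end to end into gap junctions that pass ions and small molecules. Claudins are membrane proteins with loops outside the cell that form the strands of tight junctions, and the mix of claudins sets which solutes pass between the cells of an epithelium or endothelium. In the uterus, Gja1 is the main gap junction gene of smooth muscle and stroma, Gjb2 belongs to the epithelium, Gja4, Gja5 and Cldn5 are typical of vessels, and Cldn3, Cldn4 and Cldn7 of epithelium. In whole tissue, fewer cells of a type and less RNA per cell cannot be told apart.

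Each of the 10 genes exceeded background clearly on each of the 15 arrays, by the scanner software's own flag, and no array had a saturated value. Signals are given on the log2 scale relative to the 75th percentile of their own array, so that 0 is a signal equal to that percentile and 1 unit is a doubling. Since probes differ in brightness, the level of one gene is not set against that of another. The arrays' 75th percentiles lay between 997 and 1737 signal units. Between 63.1% and 80% of an array's probes were well above background, with the lowest share on E3 24 h replicate 2. The 3 arrays of E3 24 h were less alike than those of the other groups, with a median standard deviation per gene of 0.275 against 0.166 to 0.20. One of them, replicate 2, stood apart for several of the genes below, and results that rest on it are given with and without it. The labels do not say that arrays are separate animals, so the p-values reflect only how far these samples scatter, and that scatter may be technical. The vehicle arrays shared a slide with no other group, so slide and vehicle cannot be told apart, and the 4 comparisons with vehicle share those arrays.

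Gja1 and Gjb2, which rose at 2 h, and Cldn1 and Cldn5, which fell, are shown with the RefSeq sequence from 250 bases before the annotated start to 50 bases from it on (build GRCm38.p6), because the changes of these 4 genes with E2 2 h were called under every alternative that was run. RefSeq promoters were matched for all 10 genes. Capitals mark the letters of 3 motifs on either strand: the single repeat of the oestrogen response element GGTCA, the AP-1 element TGANTCA and the Sp1 GC box GGGCGG. The windows are Gja1 at chr10:56377050-56377349, plus strand, Gjb2 at chr14:57104653-57104952, minus strand, Cldn1 at chr16:26371790-26372089, minus strand, and Cldn5 at chr16:18776597-18776896, plus strand.
Gja1: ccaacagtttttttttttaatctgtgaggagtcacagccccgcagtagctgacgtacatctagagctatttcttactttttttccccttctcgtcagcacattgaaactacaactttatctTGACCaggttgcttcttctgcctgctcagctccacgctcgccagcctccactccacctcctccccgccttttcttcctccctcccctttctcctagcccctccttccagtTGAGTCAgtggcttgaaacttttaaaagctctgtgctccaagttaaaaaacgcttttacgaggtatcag
Gjb2: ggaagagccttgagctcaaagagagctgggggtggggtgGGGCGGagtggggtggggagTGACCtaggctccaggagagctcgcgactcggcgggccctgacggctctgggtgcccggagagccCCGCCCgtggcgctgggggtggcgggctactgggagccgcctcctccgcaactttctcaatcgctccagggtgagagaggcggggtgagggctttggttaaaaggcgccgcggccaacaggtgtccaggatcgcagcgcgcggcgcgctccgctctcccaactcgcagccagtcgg
Cldn1: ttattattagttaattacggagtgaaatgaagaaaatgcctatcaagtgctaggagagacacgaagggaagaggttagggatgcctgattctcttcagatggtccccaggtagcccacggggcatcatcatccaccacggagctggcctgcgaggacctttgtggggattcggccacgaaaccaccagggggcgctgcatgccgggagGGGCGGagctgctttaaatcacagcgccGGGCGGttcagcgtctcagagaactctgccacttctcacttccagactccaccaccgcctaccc
Cldn5: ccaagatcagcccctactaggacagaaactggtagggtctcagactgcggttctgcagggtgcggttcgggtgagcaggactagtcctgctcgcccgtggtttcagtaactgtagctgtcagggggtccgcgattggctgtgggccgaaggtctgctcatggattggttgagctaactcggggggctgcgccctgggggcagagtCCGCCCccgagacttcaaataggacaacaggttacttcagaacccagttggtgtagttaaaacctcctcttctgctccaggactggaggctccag
The full oestrogen response element GGTCANNNTGACC, which holds that repeat on each strand, was in 0 of the windows of the 10 genes and in 0.07% of all 32851 promoter windows. Of the sequences shown, the single repeat began at base -129 from the start of Gja1 and at base -191 from that of Gjb2. Outside the sequences shown, it was also in windows of Gjb1, Cldn4 and Cldn7, and 40.5% of all windows held at least 1. An AP-1 element began at base -19 of Gja1 and, outside the sequences shown, at bases -240 and -158 of Cldn4, against 7.81% of all windows. The GC box was in the windows shown of Gjb2, Cldn1 and Cldn5, and in 35.7% of all windows. It was also in windows of Gja4, Gja5, Gjb1, Cldn3, Cldn4 and Cldn7, so that of the 10 genes only Gja1 lacked it. These matches describe letters in the windows, and binding was not measured.

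At 2 h, both oestrogens went with higher Gja1 and Gjb2 and lower Cldn1 and Cldn5. At 24 h, E2 still had high Gjb2 and low Cldn1 and Cldn5, whereas Gja1 differed from vehicle by -0.02 on the log2 scale. At 24 h, E3 had 1 called change, a lower Cldn1, and that call was lost in 11 of 20 alternatives. With E2 at 24 h, 4 of the 10 genes were called by limma (adjusted p under 0.05), 2 higher and 2 lower, where 43.4% of all 20307 genes tested were called (20.9% higher, 22.4% lower). With E3 at 24 h, 1 was called, lower, where 20.3% of all genes were called (9.6% higher, 10.7% lower). With E2 at 2 h, 4 were called, 2 higher and 2 lower, against 38.5% of all genes (16.3% higher, 22.2% lower). With E3 at 2 h, 7 were called, 4 higher and 3 lower, against 39.9% (16.9% higher, 23.0% lower). These shares of the 10 genes lay below, near or above the share over all genes, and with 10 genes they are a description only. The median log2 change of the 10 genes was 0.41 with E2 24 h, where that of all genes tested was -0.02. With E3 24 h it was 0.39 (all genes -0.004), with E2 2 h 0.02 (-0.12) and with E3 2 h -0.23 (-0.145).

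**Figure D1:**
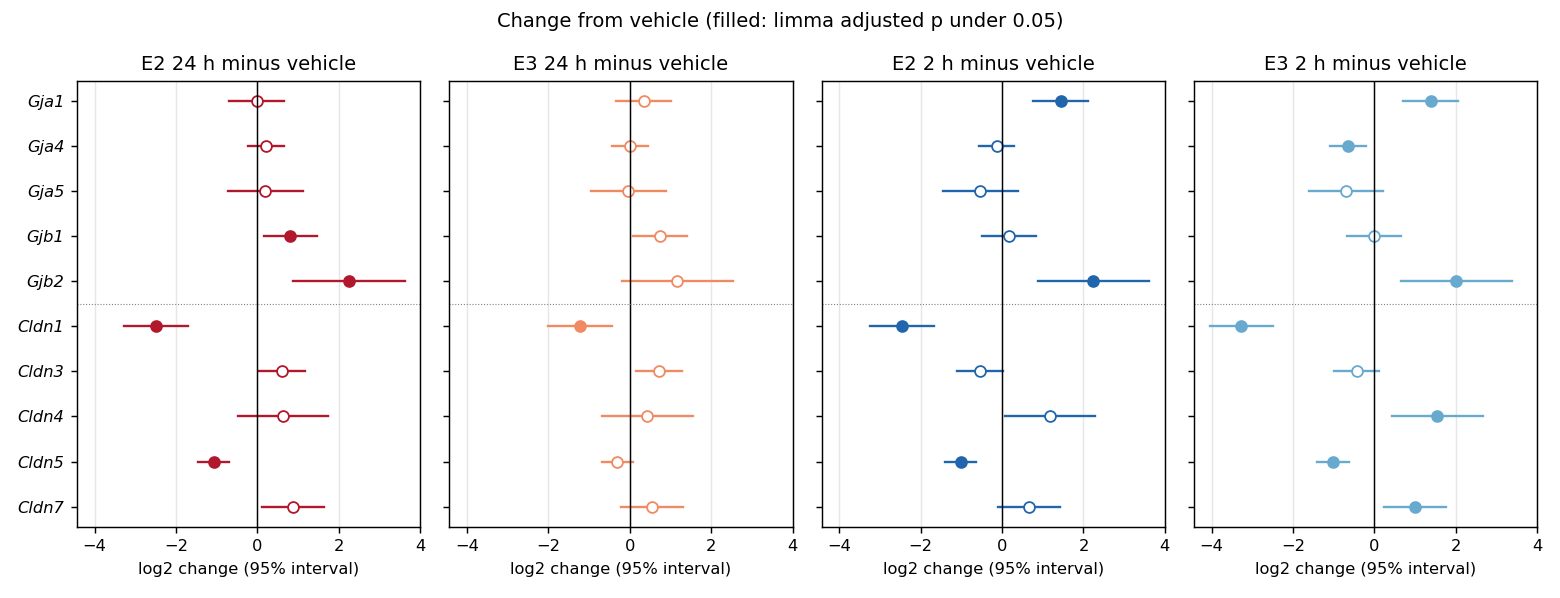
Log2 change from vehicle of the 10 genes (points) with 95% intervals (lines) in the 4 comparisons with vehicle, 3 arrays per group; filled points passed limma's adjusted p under 0.05. Cldn1 lay left of 0 in all 4 panels, Gjb2 right of 0, and Gja1 right of 0 with filled points in the 2 h panels only.

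Among the connexins, Gja1 encodes the most widespread connexin, which couples uterine smooth muscle cells (probe on chromosome 10, 56207239 to 56207298, build mm7). Its log2 signal was -1.30, -1.15 and -1.26 with E2 24 h, -1.49, 0.15 and -1.29 with E3 24 h, 0.21, 0.10 and 0.36 with E2 2 h, 0.14, 0.08 and 0.27 with E3 2 h, and -1.32, -1.08 and -1.26 with vehicle. All 6 arrays at 2 h lay above all vehicle and E2 24 h arrays, and 1 of the 3 E3 24 h arrays, replicate 2, lay among the 2 h arrays. The mean signal was 117% of the array's 75th percentile with E2 2 h and 112% with E3 2 h, against 43.1% with vehicle. The rise was 1.44 ± 0.31 on the log2 scale with E2 2 h (± standard error, 2.72-fold, limma adjusted p = 0.0031) and 1.38 ± 0.31 with E3 2 h (2.61-fold, adjusted p = 0.0039). At 24 h the change from vehicle was -0.02 with E2 (95% interval -0.70 to 0.66) and 0.34 with E3 (-0.34 to 1.02), and neither was called. From 2 h to 24 h, Gja1 fell by 1.46 ± 0.31 after E2 (limma adjusted p = 0.0019), while after E3 it fell by 1.04 ± 0.31 (adjusted p = 0.016). Without E3 24 h replicate 2 the E3 change from 2 h to 24 h was -1.55 (adjusted p = 3.6e-06), and without E3 24 h replicate 1 or 3 it was -0.73 or -0.83 and no longer called (adjusted p = 0.065 and 0.068).

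**Figure D2:**
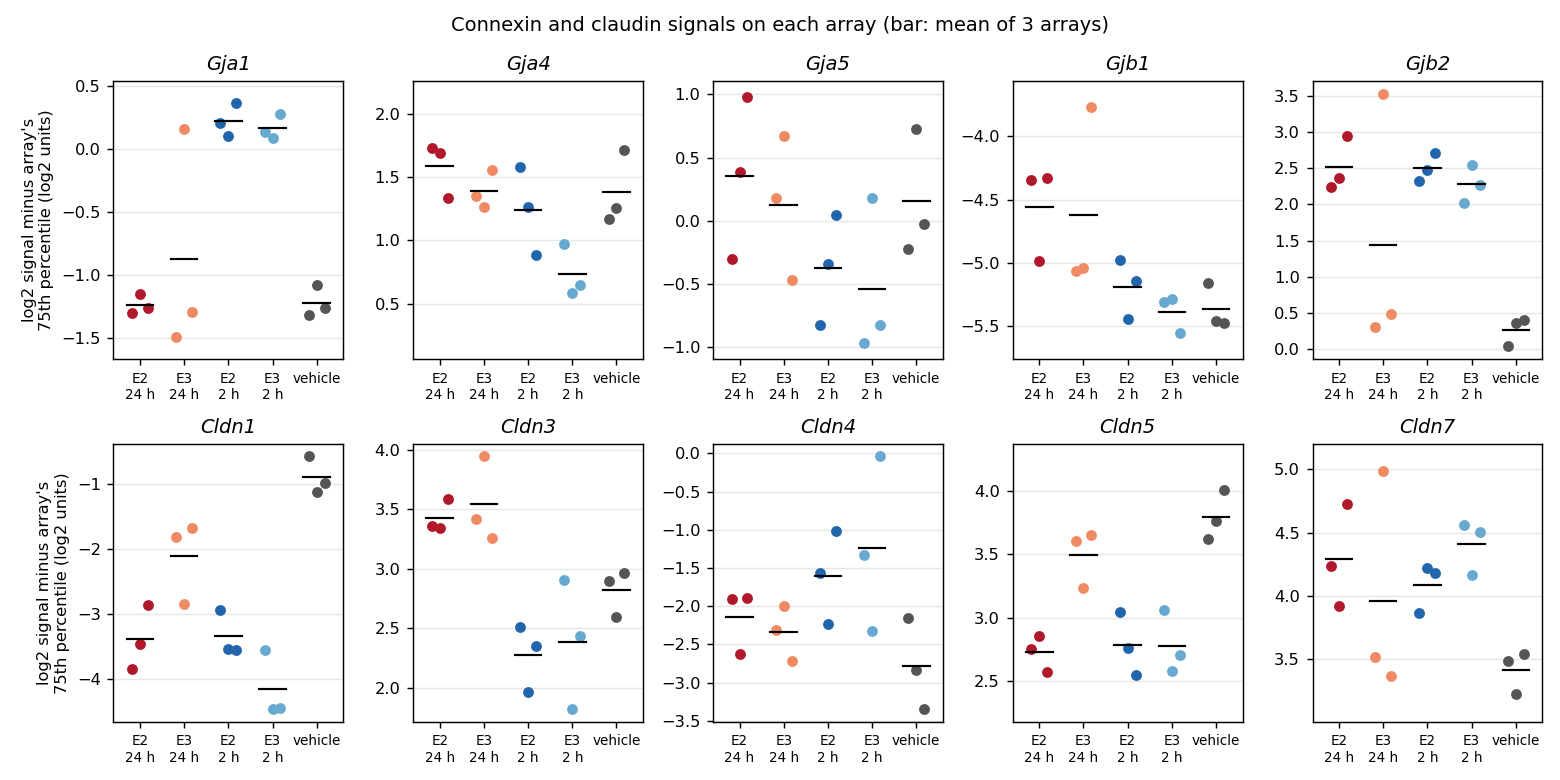
Log2 signal of each gene minus the 75th percentile of its array (vertical axis, scaled separately for each gene) on the 15 arrays; points are arrays and bars are means of 3 arrays. For Gja1, Gjb2 and Cldn7, E3 24 h replicate 2 lies far above the other E3 24 h arrays, and for Cldn1 all vehicle arrays lie above all treated arrays.

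Gjb2 encodes a connexin of epithelia that is best known from the inner ear, where its loss causes deafness (probe on chromosome 14, 51966511 to 51966570, build mm7, minus strand). Its log2 signal was 2.24, 2.36 and 2.94 with E2 24 h, 0.30, 3.53 and 0.48 with E3 24 h, 2.33, 2.48 and 2.71 with E2 2 h, 2.02, 2.54 and 2.27 with E3 2 h, and 0.04, 0.36 and 0.40 with vehicle. All arrays at 2 h and all of E2 24 h lay above the vehicle arrays, whereas E3 24 h was split, with replicates 1 and 3 near vehicle and replicate 2 the highest of all 15 arrays. The rise over vehicle was 2.25 ± 0.63 with E2 24 h (4.76-fold, limma adjusted p = 0.012), 2.24 ± 0.63 with E2 2 h (4.72-fold, adjusted p = 0.014) and 2.02 ± 0.63 with E3 2 h (4.05-fold, adjusted p = 0.023). The call with E3 2 h was lost without E3 2 h replicate 2 (1.89), E3 2 h replicate 3 (2.02), vehicle replicate 1 (1.90) or vehicle replicate 2 (2.06), at adjusted p of 0.05 to 0.068. With E3 24 h the change was 1.17 ± 0.63 and not called (adjusted p = 0.20).

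The other Gjb2 probe of the array (chromosome 14, 51967949 to 51968008, build mm7) followed the same pattern. On it, E3 24 h gave -5.65, -2.56 and -5.78, against -6.07, -5.42 and -5.77 with vehicle, so that replicate 2 was again alone in being high. The changes from vehicle on this probe were 2.11 with E2 24 h, 1.09 with E3 24 h, 2.70 with E2 2 h and 2.12 with E3 2 h, with E3 24 h alone not called (adjusted p = 0.236). In the RefSeq annotation Gjb2 lies between the connexin genes Gja3 and Gjb6. Gjb6, another connexin of epithelia and inner ear, rose by 1.81 ± 0.46 with E2 2 h and by 1.88 ± 0.46 with E3 2 h, and its changes at 24 h were 0.60 with E2 and -0.05 with E3, not called. Gja3, a connexin of the lens, had no called change from vehicle, with 0.78 for E2 24 h, -0.66 for E3 24 h, 0.52 for E2 2 h and -0.075 for E3 2 h.

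Gjb1 encodes the main connexin of liver and of myelinating Schwann cells (probe on chromosome X, 96711853 to 96711912, build mm7). Its log2 signal was -4.35, -4.99 and -4.33 with E2 24 h, -5.07, -5.04 and -3.77 with E3 24 h, and -5.16, -5.46 and -5.48 with vehicle. Both 24 h groups lay above vehicle on every array, by 0.81 ± 0.30 with E2 (1.76-fold, limma adjusted p = 0.047) while E3 gave 0.74 ± 0.30, not called (adjusted p = 0.10). At 2 h the changes were 0.18 with E2 and -0.02 with E3, not called. The Gjb1 probe was dim, with group means of 2.4 to 4.46% of the array's 75th percentile. On E3 24 h replicate 2 its -5.04 lay near that array's dimmest probe well above background (-5.466). The E2 24 h call was lost in 10 of 19 alternatives, among them another background correction (0.49, limma adjusted p = 0.062). Others were the fits without E2 24 h replicate 1 (0.71) or 3 (0.70) and without vehicle replicate 1 (0.91), 2 (0.765) or 3 (0.76). With E3 24 h the call appeared in 4 of 19 alternatives. These were the array median as the scale (0.89, limma adjusted p = 0.042), array weights (1.09, 0.015) and quantile normalization (0.97, 0.027). The last was the fit without E3 24 h replicate 1 (0.96, adjusted p = 0.047).

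Gja4 and Gja5 encode connexins of endothelium, Gja4 also that of the oocyte and Gja5 also that of the atrial muscle of the heart. For Gja4 (probe on chromosome 4, 126756251 to 126756310, build mm7) the log2 signal was 0.97, 0.59 and 0.65 with E3 2 h, against 1.17, 1.25 and 1.72 with vehicle, and the other treated arrays ranged from 0.89 to 1.74. The E3 2 h arrays lay below all vehicle arrays, and the change was -0.65 ± 0.20 (1.56-fold, limma adjusted p = 0.022). This call was lost with the array median as the scale (-0.42, adjusted p = 0.13) and without E3 2 h replicate 2 (-0.57) or 3 (-0.60) or vehicle replicate 3 (-0.48). Gja4 was higher at 24 h than at 2 h with E3 by 0.66 ± 0.20 (adjusted p = 0.017), a call lost without E3 24 h replicate 3 (0.57) or E3 2 h replicate 2 (0.58) or 3 (0.61). Gja5 (probe on chromosome 3, 96925409 to 96925468, build mm7) had no called change in any comparison on this probe. Of 2 further Gja5 probes tested, at 96923028 to 96923087 and 96948177 to 96948236, the first was called in 1 comparison, higher at 24 h than at 2 h with E2 by 0.79 (limma adjusted p = 0.047). On the Gja5 probe at 96925409 to 96925468, the standard deviation was 0.44 to 0.64 within every group. Changes from vehicle on that probe were 0.20 with E2 24 h, -0.03 with E3 24 h, -0.53 with E2 2 h and -0.70 with E3 2 h. Their 95% intervals reached down to -1.61 and up to 1.11. A probe that the array also names Gja5 maps elsewhere on chromosome 3 (98283183 to 98283242, build mm7), was well above background on 4 of 15 arrays and was not tested.

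Among the claudins, Cldn1 encodes a sealing claudin without which the skin barrier of mice fails (probe on chromosome 16, 26018826 to 26018885, build mm7, minus strand), and on this probe, with all arrays, its change from vehicle was the largest of the 10 genes at both times with both oestrogens; on the other probe it was smaller than that of Gjb2 at 24 h. Its log2 signal was -3.85, -3.47 and -2.86 with E2 24 h, -1.81, -2.85 and -1.67 with E3 24 h, -2.94, -3.54 and -3.56 with E2 2 h, -3.56, -4.46 and -4.46 with E3 2 h, and -0.57, -1.12 and -0.99 with vehicle. Every treated array lay below every vehicle array. The mean signal was 9.93% of the array's 75th percentile with E2 24 h, 24.5% with E3 24 h, 10.04% with E2 2 h and 5.86% with E3 2 h, against 54.6% with vehicle. Cldn1 fell in all 4 comparisons, with changes of -2.50 ± 0.36 with E2 24 h (5.65-fold, limma adjusted p = 0.00024), -1.22 ± 0.36 with E3 24 h (2.33-fold, adjusted p = 0.034), -2.455 ± 0.36 with E2 2 h (5.48-fold, adjusted p = 2e-04) and -3.27 ± 0.36 with E3 2 h (9.63-fold, adjusted p = 2.4e-05). The E3 24 h call was lost in 11 of 20 alternatives. Among them were the fits without E3 24 h replicate 2 (-0.85), vehicle replicate 1 (-1.06), 2 (-1.33) or 3 (-1.27), and the other Cldn1 probe (-0.68, limma adjusted p = 0.18). With E3, Cldn1 was higher at 24 h than at 2 h by 2.05 ± 0.36 (adjusted p = 0.00062).

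The other Cldn1 probe (chromosome 16, 26020464 to 26020523, build mm7) gave changes from vehicle of -1.91 with E2 24 h, -3.30 with E2 2 h and -3.74 with E3 2 h, all called. Both probes were low in every treated group, but they differed on E2 between the times. From 2 h to 24 h with E2, the first probe changed by -0.04 (adjusted p = 0.93) and the other rose by 1.39 (adjusted p = 0.0055), so the time course with E2 depends on the probe. The neighbouring claudin gene in the RefSeq annotation, Cldn16, a claudin of the kidney tubule, was well above background on 3 of 3 E2 24 h arrays, 2 of 3 E3 24 h, 1 of 3 E2 2 h, 0 of 3 E3 2 h and 2 of 3 vehicle arrays. With E3 2 h it was called lower than in vehicle (limma adjusted p = 0.0499), with measured means of -7.73 and -5.78 on the log2 scale. The values were -8.86, -7.39 and -6.95 with E3 2 h and -6.29, -7.01 and -4.045 with vehicle. The groups thus overlapped, and vehicle replicate 3 lay far above the other vehicle arrays. A difference of 2.77-fold was left when the vehicle mean was set against a floor. For each E3 2 h array, the floor was the brighter of this probe and the dimmest probe that passed the scanner's background test. That difference is not a lower bound, since 1 of the 3 vehicle values was itself not well above background.

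Cldn5 encodes the claudin that seals endothelium, including the blood-brain barrier (probe on chromosome 16, 18327686 to 18327745, build mm7). Its log2 signal was 2.75, 2.86 and 2.57 with E2 24 h, 3.60, 3.23 and 3.65 with E3 24 h, 3.04, 2.76 and 2.54 with E2 2 h, 3.06, 2.58 and 2.70 with E3 2 h, and 3.62, 3.76 and 4.01 with vehicle. All 3 arrays of E2 24 h and all 6 at 2 h lay below every vehicle array, while the E3 24 h arrays overlapped vehicle. Cldn5 fell in those 3 groups, with changes of -1.07 ± 0.18 with E2 24 h (2.10-fold, limma adjusted p = 0.00054), -1.02 ± 0.18 with E2 2 h (2.02-fold, adjusted p = 0.00069) and -1.02 ± 0.18 with E3 2 h (2.03-fold, adjusted p = 0.00065). With E3 24 h the change was -0.30 ± 0.18 (adjusted p = 0.24), which became -0.58 and called with quantile normalization (adjusted p = 0.039). With E3, Cldn5 was higher at 24 h than at 2 h by 0.72 ± 0.18 (adjusted p = 0.0053).

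Cldn3, Cldn4 and Cldn7 are claudins of simple epithelia, and Cldn3 and Cldn4 are neighbouring genes that encode receptors of a clostridial enterotoxin. Cldn3 (probe on chromosome 5, 133958589 to 133958648, build mm7) had log2 signals of 3.36, 3.34 and 3.59 with E2 24 h, 3.42, 3.95 and 3.26 with E3 24 h, 2.51, 1.96 and 2.35 with E2 2 h, 2.90, 1.82 and 2.43 with E3 2 h, and 2.90, 2.60 and 2.97 with vehicle. Every 24 h array lay above every vehicle and 2 h array. The changes from vehicle were 0.61 ± 0.26 with E2 24 h, 0.72 ± 0.26 with E3 24 h, -0.55 ± 0.26 with E2 2 h and -0.44 ± 0.26 with E3 2 h, none of them called (limma adjusted p between 0.066 and 0.20). Between the times Cldn3 rose by 1.15 ± 0.26 with E2 (2.23-fold, limma adjusted p = 0.0025), and E3 gave a rise of 1.16 ± 0.26 (2.23-fold, adjusted p = 0.0029). With the array median as the scale, both rises over vehicle at 24 h were called, at 0.83 and 0.87. Without E3 2 h replicate 1, the lower level with E3 2 h was called (-0.695, adjusted p = 0.046).

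Cldn4 (probe on chromosome 5, 133916757 to 133916816, build mm7, minus strand) had log2 signals of -1.57, -2.23 and -1.01 with E2 2 h and -1.33, -2.33 and -0.04 with E3 2 h, against -2.16, -2.83 and -3.34 with vehicle. The rise with E3 2 h was 1.55 ± 0.51 (2.92-fold, limma adjusted p = 0.030), although E3 2 h replicate 2 lay below the highest vehicle array. That call was lost without E3 2 h replicate 1 (1.59) or 3 (0.95) or vehicle replicate 2 (1.52) or 3 (1.26). With E2 2 h the change was 1.17 ± 0.51 (adjusted p = 0.09), and at 24 h it was 0.64 with E2 and 0.43 with E3, not called. Without E3 2 h replicate 2, Cldn4 was lower at 24 h than at 2 h with E3 (-1.66, adjusted p = 0.016), against -1.11 and no call with all arrays.

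Cldn7 (probe on chromosome 11, with ends at 70048852 and 70049161, build mm7, a span of 310 bases for a probe of 60) had log2 signals of 4.24, 3.92 and 4.73 with E2 24 h, 3.52, 4.99 and 3.37 with E3 24 h, 3.86, 4.22 and 4.18 with E2 2 h, 4.562, 4.16 and 4.503 with E3 2 h, and 3.48, 3.22 and 3.54 with vehicle. All arrays at 2 h and all of E2 24 h lay above vehicle, and E3 24 h was again split, with replicate 2 the highest of all arrays. The change from vehicle was 0.995 ± 0.35 with E3 2 h (1.99-fold, limma adjusted p = 0.039), 0.88 ± 0.35 with E2 24 h (adjusted p = 0.06), 0.67 ± 0.35 with E2 2 h (adjusted p = 0.15) and 0.54 ± 0.35 with E3 24 h (adjusted p = 0.29). The E3 2 h call was lost in 11 of 19 alternatives, among them leaving out any 1 of the 6 arrays compared (0.90 to 1.12, adjusted p = 0.052 to 0.11). Cldn7 was called higher in 4 of 19 alternatives with E2 24 h, in 3 of 19 with E2 2 h and in 0 of 19 with E3 24 h.

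E2 and E3 were compared at matched dose and time, in 20 comparisons of 10 genes at both times, to ask whether the junction genes ended at different levels. At 24 h, Cldn1 and Cldn5 were lower with E2 than with E3, and the other 8 genes were not called. With 2 of 10 genes called, both lower, the share over all genes was 15.6% (8.83% higher, 6.82% lower). Cldn1 averaged -3.39 ± 0.50 with E2 24 h and -2.11 ± 0.64 with E3 24 h (SD, n = 3 each), a difference of -1.28 ± 0.36 (limma adjusted p = 0.032). Cldn5 averaged 2.72 ± 0.15 with E2 24 h and 3.50 ± 0.23 with E3 24 h (SD, n = 3 each), a difference of -0.77 ± 0.18 (limma adjusted p = 0.013). For both genes all 3 E2 arrays lay below all 3 E3 arrays. Leaving out E2 24 h replicate 1 (-1.05), E2 24 h replicate 2 (-1.24), E3 24 h replicate 1 (-1.13) or E3 24 h replicate 3 (-1.06) ended the call of Cldn1, and leaving out E3 24 h replicate 3 ended that of Cldn5 (-0.69, adjusted p = 0.05). With slide as a fixed block the differences were -0.004 and 0.01, in a fit where E3 24 h is tied to the other groups only through replicate 2, since the slide of the other E3 24 h arrays held no other group.

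Gjb2 and Cldn7 differed between E2 and E3 at 24 h depending on E3 24 h replicate 2. With all arrays the Gjb2 difference was 1.08 ± 0.63 (95% interval -0.29 to 2.45, limma adjusted p = 0.28). Without that array it was 2.125 (adjusted p = 0.00028), and within the arrays of scan day 1, which leave it out, 2.26 (adjusted p = 0.0025). The Cldn7 difference was 0.34 ± 0.35 (95% interval -0.43 to 1.101) with all arrays and 0.85 (adjusted p = 0.021) without replicate 2, against 0.88 (adjusted p = 0.053) within scan day 1. Without replicate 2, Gjb2 with E3 24 h was 0.13 above vehicle (adjusted p = 0.74) and differed by -1.89 from its E3 2 h level (adjusted p = 5.4e-05), and Cldn7 was 0.03 above vehicle and differed by -0.97 from E3 2 h (adjusted p = 0.004). On replicate 2 the summed signal of 8 epithelial marker genes was 32460% of the array's 75th percentile, against 21180% and 19900% on the other E3 24 h arrays. Its part in the result was not tested.

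**Figure D3:**
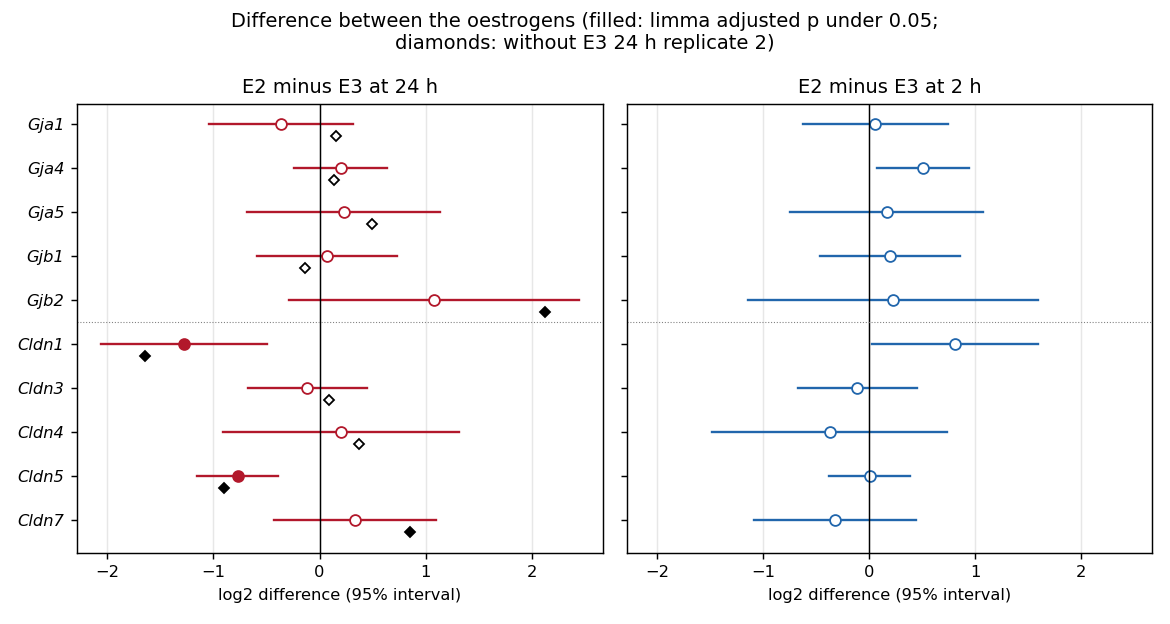
Log2 difference of E2 minus E3 for the 10 genes at 24 h and at 2 h (points) with 95% intervals (lines), 3 arrays per group; filled symbols passed limma's adjusted p under 0.05, and diamonds give the 24 h difference without E3 24 h replicate 2. Cldn1 and Cldn5 are left of 0 at 24 h, Gjb2 moves to 2.125 without that array, and no symbol is filled at 2 h.

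The differences of the other genes at 24 h were -0.36 for Gja1, 0.20 for Gja4, 0.23 for Gja5, 0.07 for Gjb1, -0.115 for Cldn3 and 0.20 for Cldn4. Their 95% intervals reached no farther than 1.31 up and -1.04 down, so differences up to that size remain possible. At 2 h, 0 of the 10 genes and 0 of all genes (0%) were called by limma, and 737 genes and 2 of the 10 had an unadjusted p under 0.05. Those 2 were Gja4, higher with E2 than with E3 by 0.51 (95% interval 0.07 to 0.94), and Cldn1, higher by 0.81 (0.03 to 1.595). The narrowest interval at 2 h was that of Cldn5, -0.38 to 0.39 around 0.003, and the widest that of Gjb2, -1.14 to 1.59 around 0.22. Where no difference was called, equal action of E2 and E3 is not shown.

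Whether the difference between the oestrogens itself differed between the times was tested as the E2 minus E3 difference at 24 h minus that at 2 h. Only Cldn1 was called, at -2.09 ± 0.51 (limma adjusted p = 0.034), where 6% of all genes were called (3.63% higher, 2.36% lower). Cldn1 was lower with E2 than with E3 at 24 h (-1.28) and higher at 2 h (0.81). For Cldn5 the value was -0.77 ± 0.25 (adjusted p = 0.088), and without E3 24 h replicate 2 it was -0.91 (adjusted p = 0.039). Without that array Gjb2 (1.90, adjusted p = 0.0054) and Cldn7 (1.175, adjusted p = 0.03) were called too. The Cldn1 call was lost in 15 of 27 alternatives, among them the fits that left out any 1 of the E2 2 h arrays, replicate 1 or 2 of E2 24 h, replicate 1 or 3 of E3 24 h, and replicate 2 or 3 of E3 2 h. With each array left out in turn the value ran from -2.46 to -1.86.

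The comparison of 24 h with 2 h asks which of the 2 h levels held. With E2, 2 of the 10 genes were called, Cldn3 higher and Gja1 lower at 24 h, where 52.3% of all genes were called (29.7% higher, 22.6% lower). With E3, 5 were called, Gja4, Cldn1, Cldn3 and Cldn5 higher and Gja1 lower, where 49.4% of all genes were called (29.1% higher, 20.3% lower). Between the times with E2, Gjb2 changed by 0.01 (95% interval -1.35 to 1.38), Cldn5 by -0.06 (-0.44 to 0.33) and Cldn7 by 0.21 (-0.56 to 0.97). With slide as a fixed block, Gja1 with E2 changed by -1.38 (adjusted p = 0.004), and with E3 the changes of Gja4 and Cldn5 turned to -0.194 and -0.185, in the fit where E3 24 h rests on replicate 2. In that fit the changes of Gja1 (-0.11), Cldn1 (0.80) and Cldn3 (1.28) with E3 and of Cldn3 with E2 (1.185, adjusted p = 0.059) were not called.

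The other genes of both families and the proteins that tight junctions bind were followed as lists chosen with earlier results of these data known. Of 14 other connexins with a probe, 7 were tested, and at 2 h 2 rose and 0 fell with E2 while 1 rose and 0 fell with E3, where 38.5% of all genes were called with E2 2 h and 39.9% with E3 2 h. With E2 24 h, 0 of the 7 rose and 1 fell (43.4% of all genes called), and with E3 24 h, 0 were called (20.3%). Gjc1, a connexin of smooth muscle and of the conduction system of the heart, rose by 0.54 ± 0.17 with E2 2 h and fell by 0.53 ± 0.17 with E2 24 h. Of the related pannexins, 1 was tested, and Panx1, which forms channels that release ATP, rose by 0.62 ± 0.22 with E2 24 h (adjusted p = 0.037).

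Of 16 other claudins with a probe, 12 were tested. With E2 24 h, 1 rose and 1 fell, where 43.4% of all genes were called, and with E3 24 h, 0 were called by limma and 1 had an unadjusted p under 0.05, where 20.3% of all genes were called. With E2 2 h, 2 rose and 1 fell (38.5% of all genes called), and with E3 2 h, 1 rose and 3 fell, Cldn16 among them (39.9%). Cldn2, which forms cation and water channels in leaky epithelia, was -2.79, -2.11 and -1.50 with E2 24 h, -6.49, -1.86 and -3.80 with E3 24 h, and -6.48, -5.81 and -5.45 with vehicle. All 3 E2 24 h arrays were high, and the E3 24 h arrays reached from the vehicle level to the E2 level, with replicate 2 the highest. The rise with E2 24 h was 3.78 ± 0.94 (limma adjusted p = 0.0067), and the change with E3 24 h was 1.866 ± 0.944 (adjusted p = 0.18). At 2 h, Cldn8, a claudin of the kidney's collecting duct, fell with both oestrogens (E2 -1.78 ± 0.23, E3 -1.56 ± 0.23), and Cldn15, a claudin of the intestine, rose by 0.605 ± 0.18 with E2 and by 0.94 ± 0.18 with E3. Cldn11, a claudin of myelin and Sertoli cells, was lower with E2 24 h (-0.91 ± 0.17) and higher with E2 2 h (0.71 ± 0.17), and Cldn9, a claudin of the inner ear, fell by 0.70 ± 0.18 with E3 2 h.

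All 18 tight junction partners were tested. With E2 24 h, 3 rose and 3 fell, where 43.4% of all genes were called. The scaffold gene Tjp3 rose by 1.37 ± 0.37 (limma adjusted p = 0.010), the polarity gene Pard6a by 0.865 ± 0.19 and the junction membrane gene Marveld3 by 0.825 ± 0.25, while Tjp1, the best known tight junction scaffold, fell by 0.74 ± 0.17. With E3 24 h, 1 of the 18 rose and 1 fell, where 20.3% of all genes were called. Pard6a rose by 0.85 ± 0.19 and Mpdz, a scaffold with many PDZ domains, fell by 1.325 ± 0.37. With E2 2 h, 1 rose and 0 fell (38.5% of all genes called), and with E3 2 h, 1 rose and 1 fell (39.9%). At 2 h Pard6b, a paralog of Pard6a, rose by 0.89 ± 0.29 with E2 and by 0.95 ± 0.29 with E3. Tjp1 also fell with E3 2 h (-0.60 ± 0.17). Tjp3 on the E3 24 h arrays was 2.24, 3.60 and 1.86, again with replicate 2 the highest. Ocln, the gene of occludin, had changes of 0.24 with E2 24 h, 0.35 with E3 24 h, -0.47 with E2 2 h and -0.68 with E3 2 h, not called. Between E2 and E3 at 24 h, 1 of the 7 other connexins, 2 of the 12 other claudins and 1 of the 18 partners were called, where 15.6% of all genes were, and these 4 are named here after their values were seen. Gja3 was higher with E2 than with E3 by 1.44 ± 0.38 (limma adjusted p = 0.025), and Cldn11 (-0.88 ± 0.17), Cldn14 (-0.94) and the endothelial adhesion gene Jam2 (-0.85) were lower.

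**Figure D4:**
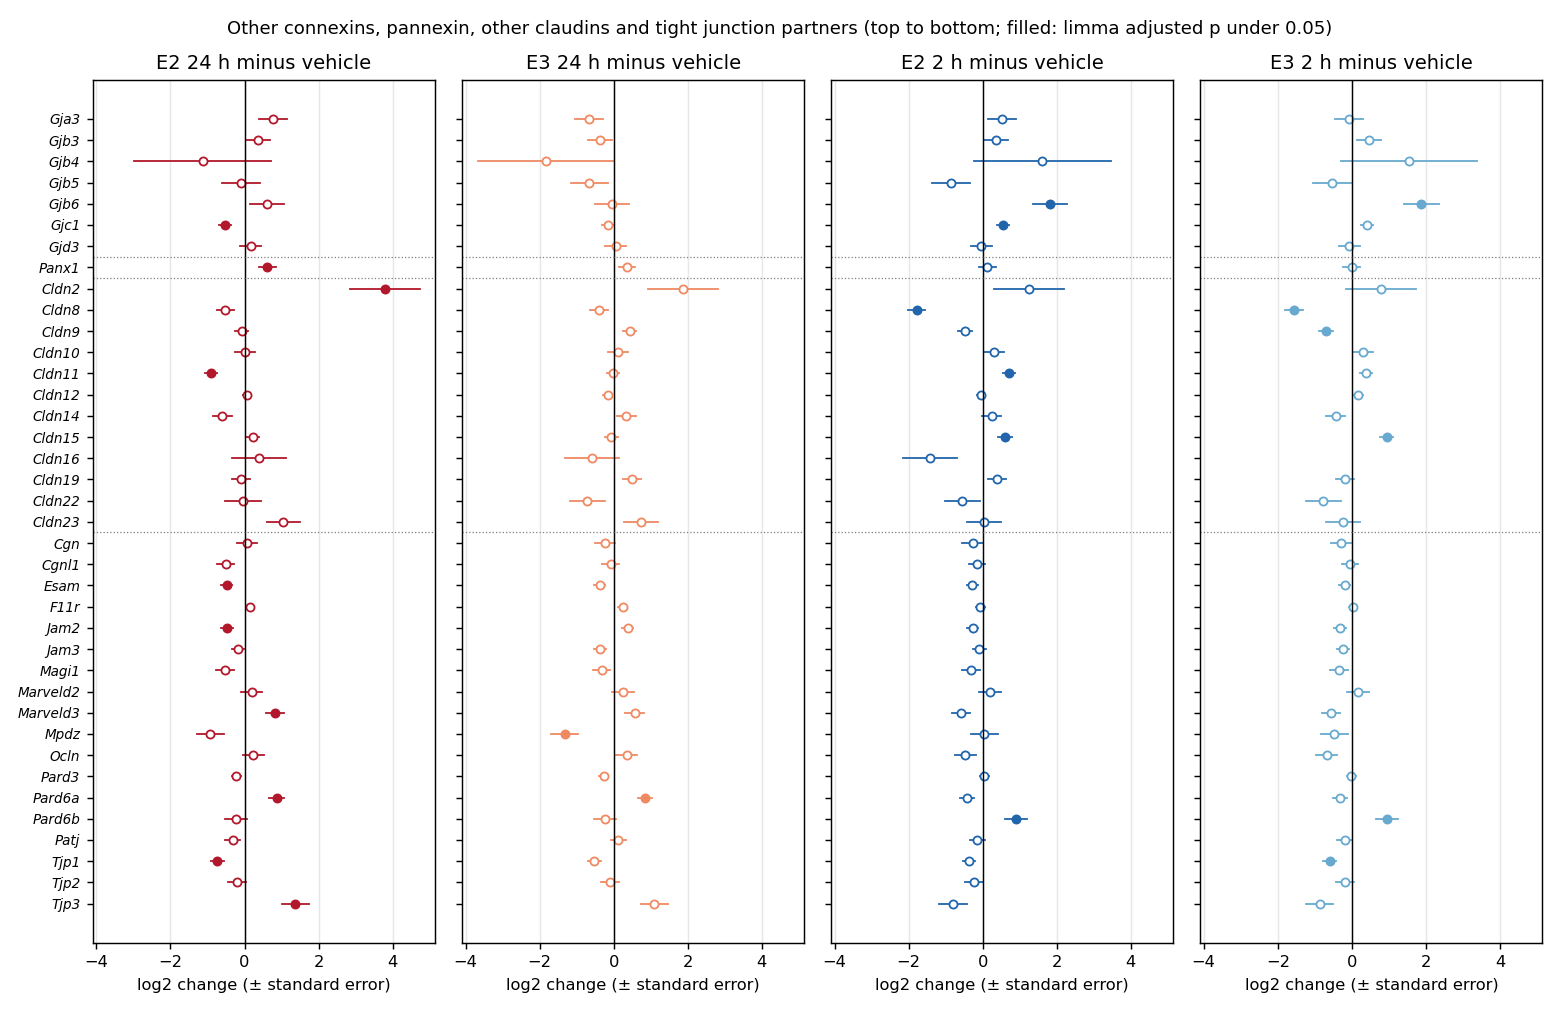
Log2 change from vehicle (points, with standard error as lines) of the other connexins, Panx1, the other claudins and the tight junction partners tested, in blocks from top to bottom, 3 arrays per group; filled points passed limma's adjusted p under 0.05, and Cldn16 has no point with E3 2 h, where it was above background on 0 arrays. Cldn2 with E2 24 h is the farthest point to the right, and Cldn8 is filled left of 0 in both 2 h panels.

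Cell type markers were read beside these genes. Of 8 epithelial markers, 4 were higher with E2 24 h (Krt7, Krt8, Krt19 and Elf3) and 0 lower, where 20.9% of all genes were called higher, with summed signals of 21040 to 29010% of the array's 75th percentile, against 13400 to 18280% with vehicle. With E3 24 h, 1 epithelial marker, Krt19, was higher and 0 lower, where 9.6% of all genes were called higher. The epithelial sums with E3 24 h were 19900 to 32460%, so all its arrays lay above the highest of vehicle. At 2 h the epithelial sums were 11390 to 12980% with E2 and 10120 to 17190% with E3. No 2 h sum exceeded the highest of vehicle, but a sum depends mostly on the brightest markers. The mean log2 signal of the 8 was 3.08 with E2 2 h and 3.135 with E3 2 h, against 3.02 with vehicle. On that measure E3 2 h replicate 1 (3.45) lay above the highest vehicle array (3.18). The single epithelial markers moved in both directions at 2 h. Elf3, an epithelial transcription factor, rose by 1.82 ± 0.53 with E2 2 h (limma adjusted p = 0.017) and by 1.91 ± 0.53 with E3 2 h (limma adjusted p = 0.013). The keratin gene Krt18 fell by 0.63 ± 0.20 with E2 2 h (limma adjusted p = 0.027). Krt7 had changes of 0.65 with E2 2 h and 0.80 with E3 2 h, not called. Of 7 endothelial markers, 4 were lower with E2 24 h (Cdh5, Kdr, Tek and Vwf), where 22.4% of all genes were called lower, with sums of 1557 to 1740%, against 1994 to 2263% with vehicle, beside the lower Cldn5. With E3 24 h, 1 endothelial marker, Kdr, was lower and 0 higher, where 10.7% of all genes were called lower, with sums of 2076 to 2866%. At 2 h, 0 endothelial markers were called with E2 and 1, Tek, was lower with E3, with sums of 1922 to 1960% with E2 and 1916 to 2297% with E3. Of 6 leukocyte markers, 3 were higher with E3 24 h, where 9.6% of all genes were (1012 to 2052%, against 770 to 833% with vehicle). Beside Gja1, which was high at 2 h only, the sums of 6 smooth muscle markers were 37700 to 48690% with E2 2 h and 46500 to 57910% with E3 2 h, against 39000 to 58110% with vehicle, and 0 of the 6 were called by limma at 2 h, with 0 at an unadjusted p under 0.05 for E2 and 1 for E3. At 24 h the smooth muscle sums were 58180 to 94930% with E2 and 74610 to 91210% with E3, and 4 of the 6 rose with E2 and 6 of the 6 with E3, where 20.9% of all genes were called higher with E2 24 h and 9.6% with E3 24 h. The sums of 6 stromal markers were 21710 to 26670% with E2 2 h and 26080 to 28990% with E3 2 h, against 27160 to 32870% with vehicle. At 24 h these sums were 22340 to 23910% with E2 and 33570 to 41460% with E3. Of the 6, 3 were lower with E2 2 h and 0 higher, where 22.2% of all genes were called lower. With E3 2 h, 4 were lower and 0 higher, where 23.0% were. With E2 24 h, 1 was higher and 3 lower, where 20.9% and 22.4% of all genes were. With E3 24 h, 1 was higher and 1 lower, where 9.6% and 10.7% were. The sums of 5 uterine markers were 2256 to 2807% with E2 24 h, 1919 to 2436% with E3 24 h, 1450 to 1599% with E2 2 h and 1428 to 1565% with E3 2 h, against 2575 to 3240% with vehicle. With E2 2 h, 1 of the 5 (Pgr) was higher and 3 lower, where 16.3% of all genes were called higher and 22.2% lower. With E3 2 h, 1 (Pgr) was higher and 4 lower, where 16.9% were called higher and 23.0% lower. The stromal and uterine lists share Hoxa10 and Hoxa11, both called lower at 2 h with both oestrogens, so their counts are not independent. The sums of 4 adipocyte markers varied widely within groups. They were 337 to 6894% with E2 24 h, 1726 to 5314% with E3 24 h and 1284 to 6795% with E2 2 h. With E3 2 h they were 649.3 to 6116%, against 531.6 to 9599% with vehicle. None of these 4 was called in the comparisons with vehicle, where 20.3% to 43.4% of all genes were called. All markers of these lists passed the filter on dim probes, and their part in the changes was not tested.

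**Figure D5:**
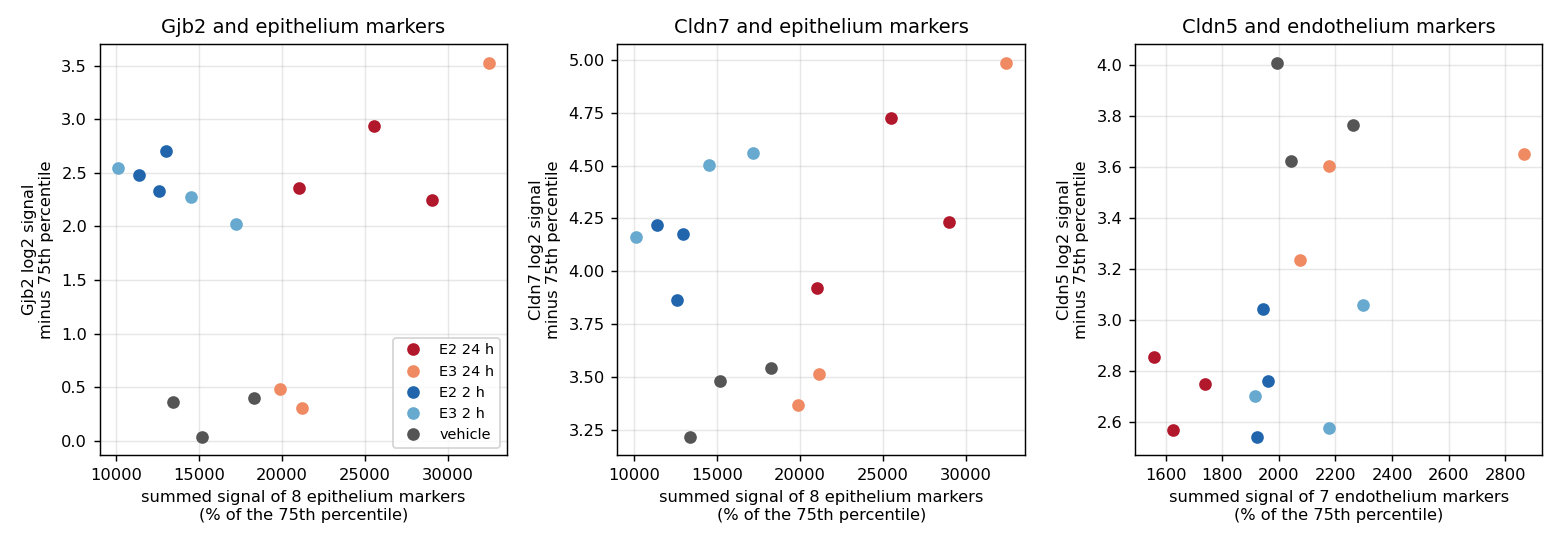
Log2 signal of Gjb2, Cldn7 and Cldn5 (vertical axes, minus the array's 75th percentile) against the summed signal of 8 epithelial or 7 endothelial markers on the same array (horizontal axes, in percent of the 75th percentile); each point is 1 of the 15 arrays. No 2 h array has an epithelial sum above the highest of vehicle, and E3 24 h replicate 2 has the highest epithelial sum, Gjb2 and Cldn7.

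As a description over the 15 arrays, which share the scale and fall into 5 groups, the Pearson correlation of Cldn1 with Cldn5 was 0.899 and that of Gjb2 with Cldn7 was 0.887. Gjb2 ran opposite to Cldn5 (-0.838) and to Cldn1 (-0.811). The gene whose pattern was most like that of Gja1 was Inhbb, a subunit of inhibins and activins (0.979), and for Gjb2 it was Scgb3a1, a secretoglobin (0.965). For Cldn1 it was Ptch1, a receptor of hedgehog ligands (0.966), for Cldn5 Fbxo32, a ubiquitin ligase subunit of muscle atrophy (0.965), and for Cldn3 Cdk14 (0.977). For Cldn7 it was Lsr, a protein of tricellular tight junctions (0.967), followed by the epithelial factor Elf3 (0.942). Lower values belonged to Gjb1 with Reg1 (0.921), Gja4 with Rnf157 (0.897), Gja5 with Pabpc2 (0.843) and Cldn4 with Rasgrp1 (0.832). For Gjb1, Reg1 was followed by Cela3b (0.913). Why Gjb1 ran with Reg1 and Cela3b, and which cells gave its signal, was not tested.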

How the data were processed

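Total RNA of whole uterus, labelled with Cy3, was measured on one-colour Agilent arrays, 3 for each of 5 groups. The deposited intensity is, per the file headers, the signal that Feature Extraction 9.5.3.1 (9.5 per the submitters' processing notes) gives after background subtraction and detrending. Arrays were not brought to a common scale by the authors, and their value table equalled the scanner signals (largest relative difference 0). Of 41174 probes, 53 lacked a value on some array and were dropped. From each log2 signal the 75th percentile of that array's non-control probes was subtracted. The brightest probe by mean stood for its gene, and a gene entered the test when that probe was flagged well above background on the 3 arrays of 1 group or more, which left 20307 genes, 15793 with a symbol. Names came from the RefSeq identifiers of the probes or, without a match, from symbols in the files, and probe positions are those of build mm7 in the files. Npm1 has an older symbol in common with Gja1, and its probes were kept with Npm1.

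Group means were estimated with limma 3.58.1 (R 4.3.3, with the package data.table, version 1.17.8) from the 15 arrays together, p-values were adjusted by Benjamini-Hochberg over the genes tested, and a gene was called when the adjusted p was under 0.05. Intervals are at 95%. The fit was tested on simulated data. Depth is given as signal and share of probes above background, since arrays give no counts, and the number of arrays limits precision. The genes and lists were chosen with earlier results of these data known. All 10 genes are named in every comparison, and of each other list up to 4 with the largest called changes from vehicle; Gja3 and Ocln were added after their values were seen. Alternatives changed the scale, background correction, filter, probe rule, arrays in the fit, slide, scan day, replicate block and array weights. 1 other connexin is not reported here and is left out of its list. Protein sequences were not used here.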

Additional observations from a re-analysis of the deposited data

Results flagged for a closer look

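Cldn1, a sealing claudin, was the gene of the 10 called, with all arrays, for a difference between the oestrogens that differed between the times. The E2 minus E3 difference was -1.28 at 24 h and 0.81 at 2 h on the log2 scale, and the first minus the second was -2.09 (limma adjusted p = 0.034, 3 arrays per group). All 3 E2 arrays lay below all 3 E3 arrays at 24 h, and the groups overlapped at 2 h. On the other Cldn1 probe the value was -1.66 (adjusted p = 0.077). The call was lost in 15 of 27 alternatives, with the smallest value under slide as a fixed block (-0.71, adjusted p = 0.87). Without E3 24 h replicate 2, Gjb2 (1.90, adjusted p = 0.0054), Cldn7 (1.175, adjusted p = 0.03) and Cldn5 (-0.91, adjusted p = 0.039) were called as well.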

How the results depend on the processing

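Of 26 changes called among the 10 genes, 11 were called under every alternative: Gjb2, Cldn1 and Cldn5 with E2 24 h, Gja1, Gjb2, Cldn1 and Cldn5 with E2 2 h, Gja1, Cldn1 and Cldn5 with E3 2 h, and Gja1 between the times with E2. Over 1856 recomputed values, 1722 kept their side of the threshold, 84 lost a call, 46 gained one and 4 reversed, where 140 changes of sign with neither value called are counted as kept. The reversals were Cldn1 from 2 h to 24 h with E2 on its other probe (1.39), and, with slide as a fixed block, Cldn5 for E2 minus E3 at 24 h (0.012) and Cldn5 (-0.185) and Gja4 (-0.194) from 2 h to 24 h with E3. By its construction that fit ties E3 24 h to the other groups through replicate 2 alone.

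The number of the 10 genes called with E3 24 h was 1, and 3 with the array median as the scale or with quantile normalization, and 0 with the mean of a gene's probes, no filter, only the groups compared, scan day as a block or slide as a random block. For E2 minus E3 at 24 h it was 2, and 1 with no filter, scan day as a block or slide as a random block, and 0 with only the groups compared or slide as a fixed block. Between the times it was 2 with E2 (4 with array weights, 1 with slide fixed) and 5 with E3 (8 with array weights, 0 with slide fixed). For the oestrogen by time difference it was 1, and 2 with array weights or scan day 1 alone, and 0 with no filter, only the groups compared, scan day as a block, slide fixed or slide random. Leaving out 1 array at a time gave 3 to 4 with E2 24 h, 0 to 2 with E3 24 h, 4 to 4 with E2 2 h, 3 to 6 with E3 2 h, 0 to 4 for E2 minus E3 at 24 h, 0 to 0 at 2 h, 2 to 2 and 3 to 8 between the times with E2 and E3, and 0 to 4 for the oestrogen by time difference. The cause was not tested.

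The labels give no pairing of arrays by replicate number. Over 30 pairs of the same number, deviations from group means correlated at -0.224 to 0.207, 7 of them over 0.1. Without pairs of different numbers beside them, these values do not decide whether arrays were paired. With a replicate block, Cldn7 with E3 2 h was 0.995 and no longer called (limma adjusted p = 0.06), and no other call among the 10 genes changed.

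Over all genes, the calls were 8805 with E2 24 h, 4129 with E3 24 h and 7817 with E2 2 h. They were 3178 for E2 minus E3 at 24 h, 10617 between the times with E2, 10024 with E3 and 1218 for the oestrogen by time difference. With E3 24 h, 9 were called with only the groups compared and 1387 without vehicle replicate 1. With E2 2 h, 12633 were called with array weights. For E2 minus E3 at 24 h, 360 were called with only the groups compared and 0 with slide fixed. Between the times with E3, 143 were called with slide fixed. For the oestrogen by time difference, 2857 were called with array weights and 0 with slide fixed. With every probe on its own, probes were counted and not genes, out of a larger number tested. Those counts were 13582 with E2 24 h, 6658 with E3 24 h and 16047 between the times with E2. They are not comparable with the counts of genes. With the array median as the scale, the share of calls that were higher was 67.5% with E2 24 h, 70% with E3 24 h, 57.2% with E2 2 h and 62.2% with E3 2 h, beside 48.3%, 47.2%, 42.3% and 42.4%, and the median change of all genes was 0.20, 0.14, 0.03 and 0.08.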
